A study of Mus musculus with 23 samples.

Results

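The hepatocyte transcription factors measured here were 4 members of the CCAAT/enhancer binding protein (C/EBP) family, Cebpa, Cebpb, Cebpd and Cebpg, and 5 factors of the liver network, Hnf4a, Foxa1, Foxa2, Foxa3 and Onecut1. The members were taken by symbol from the gene count table, and all 9 were found among its 54838 genes. All 9 also passed the filter on low counts. C/EBP proteins are basic leucine zipper factors that bind DNA as pairs. C/EBPα keeps hepatocytes differentiated and out of the cell cycle, C/EBPβ and C/EBPδ are induced by cytokines in the acute phase response, and C/EBPγ lacks an activation domain and pairs with other zipper proteins. HNF4α is a nuclear receptor that keeps hepatocyte genes active, the FOXA proteins open chromatin at liver enhancers, and HNF6, the product of Onecut1, acts in hepatocytes and bile duct cells.

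The data were 23 RNA sequencing libraries of liver in 6 groups, all from C57BL/6J, an inbred laboratory mouse strain. The proteins were recombinant and were injected 3 times at 1 µg per g of body weight, with intervals of 1 day. Batch 2 held groups given FSTL3 (an activin-binding protein of the follistatin family), FCN2 (a lectin of the complement system), EPDR1 (a secreted protein of the ependymin family) or vehicle, with 4 libraries each. Batch 1 held groups given LBP, the binding protein of bacterial lipopolysaccharide, with 3 libraries numbered 2, 3 and 4, or vehicle, with 4 libraries. The labels give no age or sex, and they do not say that the libraries of a group came from separate animals, so a p-value here stands for the spread among the libraries, part of which may be technical. Levels are in CPM, a gene's count relative to the size of its library as scaled by the trimmed mean of M-values. Differences are log2 fold changes ± SE from the quasi-likelihood test of edgeR, and a gene was called when its Benjamini-Hochberg adjusted p over all genes tested was under 0.05.

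Total counts per library ran from 773499 to 21892416. LBP replicate 2 stood apart. Albumin (Alb) took 0.211% of all counts there, while its share elsewhere lay between 5.26% and 8.36%. The summed level of 13 pancreatic acinar markers was 2548 CPM in LBP replicate 2 and 905.5 CPM in LBP replicate 4, but 21.5 CPM in replicate 3, against 7.78 to 116 CPM in the vehicle of batch 1. Results for LBP are therefore given with and without replicate 2, and the Cebpb and Cebpd results also without replicate 4. The FSTL3 libraries also stood apart, with small structural RNAs at 0.668% to 0.753% of counts, against 0.0056% to 0.00773% in the vehicle of batch 2, and messages of the mitochondrial genome at 1.97% to 2.13%, against 7.36% to 11.8%. The summed level of 10 hepatocyte markers was at least 81380 CPM in every library except LBP replicate 2 (44610 CPM), and none of the 10 was at 0 in any library. Albumin, the largest part of the sum elsewhere, was at 3493 CPM in LBP replicate 2. Other hepatocyte markers spread widely among the LBP libraries. Apoa1 and Trf reached 22870 and 8117 CPM in their highest LBP library, against at most 7509 and 792.1 CPM in the vehicle of batch 1. In their lowest LBP library they were at 4945 and 541.4 CPM. Fgb and Cps1 were at 656.1 and 177.9 CPM in their lowest LBP library, against at least 5972 and 2654 CPM in that vehicle. In their highest LBP library they were at 13300 and 3328 CPM. The hepatocyte sum was 81380 to 94310 CPM in FSTL3 libraries, against 95580 to 107600 CPM in the vehicle of batch 2. In bulk liver, fewer cells of a type and less RNA per cell cannot be told apart.

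Promoter sequences were matched for 8 of the 9 genes (RefSeq, GRCm38.p6), and all coordinates here are of GRCm38. The 250 bases before the start are shown for Cebpa and Cebpb, whose levels are set against each other further on, and for Foxa2 at its most upstream start, since Cebpb and Foxa2 were the genes called after FSTL3. Capitals mark matches to 6 motifs searched on both strands: C/EBP (TTNNGNAA, in 36.8% of 32851 mouse promoter windows of the same length), STAT (TTCNNNGAA, 7.02%), the core of the cyclic AMP response element (TGACG, 17.8%), the E-box (CACGTG, 6.02%), forkhead (TGTTTNC, 17.8%) and HNF6 (ATCAAT, 6.72%).
Cebpa: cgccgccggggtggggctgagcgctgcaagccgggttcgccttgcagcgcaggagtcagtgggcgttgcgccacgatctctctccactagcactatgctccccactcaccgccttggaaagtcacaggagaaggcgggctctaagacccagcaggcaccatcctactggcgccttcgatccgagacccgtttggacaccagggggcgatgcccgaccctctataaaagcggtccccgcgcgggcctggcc
Cebpb: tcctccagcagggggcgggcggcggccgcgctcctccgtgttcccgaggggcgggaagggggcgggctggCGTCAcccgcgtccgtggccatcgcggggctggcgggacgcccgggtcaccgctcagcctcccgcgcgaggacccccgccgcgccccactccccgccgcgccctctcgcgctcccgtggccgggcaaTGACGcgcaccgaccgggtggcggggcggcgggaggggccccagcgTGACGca
Foxa2: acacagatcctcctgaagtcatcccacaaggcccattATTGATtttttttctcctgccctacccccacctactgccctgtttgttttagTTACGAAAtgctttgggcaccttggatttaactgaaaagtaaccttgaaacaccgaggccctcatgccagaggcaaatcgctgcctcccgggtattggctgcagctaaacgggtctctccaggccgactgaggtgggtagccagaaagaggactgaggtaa
The Cebpb window lies on the plus strand at chr2:167688665-167688914. It held 3 matches to TGACG, beginning at -180 (as CGTCA, on the other strand), -53 and -7 from the start, and had a GC content of 81.6%. The Cebpa window (plus strand, chr7:35119043-35119292) held none of the 6 motifs. The Foxa2 window (minus strand, chr2:148046970-148047219) held 1 C/EBP match at -161 and 1 HNF6 match at -213, which did not overlap each other. The windows at the other Foxa2 starts, chr2:148045465-148045714 and chr2:148045949-148046198, are not shown and held none of the 6 motifs.

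Per kilobase of exon, the scale on which levels of different genes can be compared, Hnf4a and Cebpa were the most abundant members in every group, LBP replicate 2 left aside. In the vehicle of batch 2, Hnf4a averaged 122.8 and Cebpa 99.3 CPM per kilobase, with overlapping ranges. In the vehicle of batch 1, Cebpa averaged 162.6 and Hnf4a 150.1 CPM per kilobase, and their ranges also overlapped. Onecut1 and Cebpd were the least abundant in both vehicle groups on this scale. The lengths include exon bases shared with other genes, 52.8% for Onecut1, 20.7% for Cebpb and 15% for Cebpd. Reads there may have gone uncounted, which was not tested. The levels per kilobase of these 3 genes, and their ranks, may therefore be too low. Onecut1 averaged 2.27 and Cebpd 0.952 CPM per kilobase in the vehicle of batch 2, against averages of 4.91 for Onecut1 and 4.37 for Cebpd in that of batch 1. Cebpb ranked 3 of 9 in FSTL3 libraries, at 21.5 CPM per kilobase, and 6 of 9 in the vehicle of batch 2, at 10.7.

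**Figure D1:**
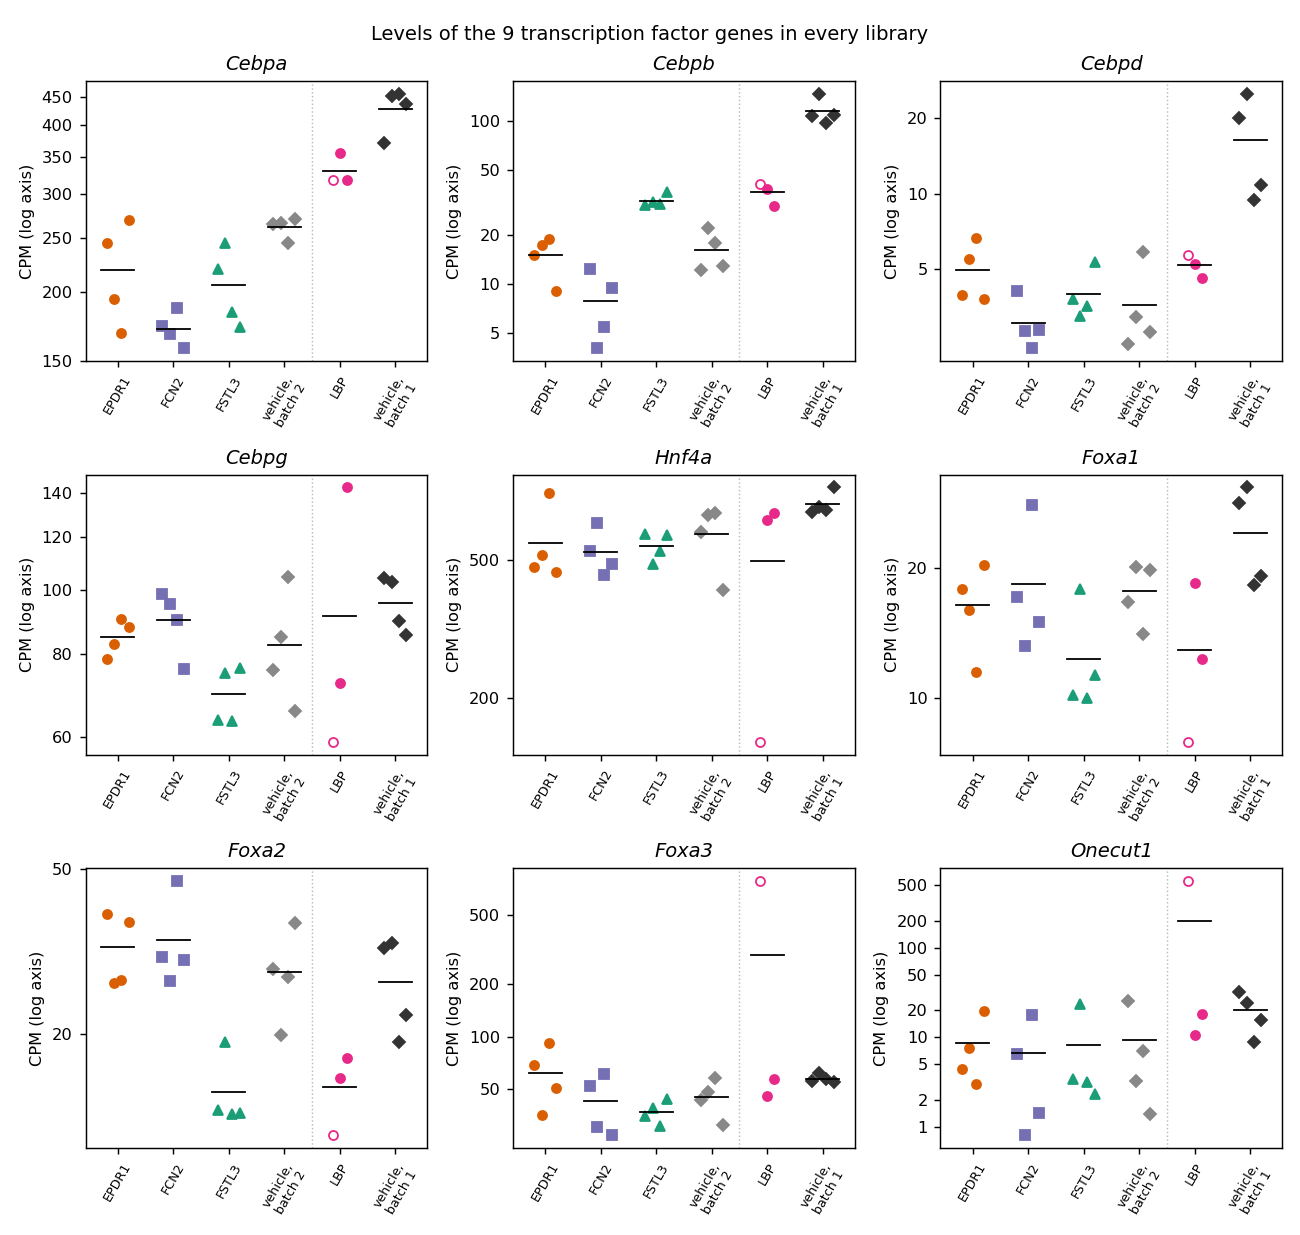
CPM of each of the 9 genes in every library, on log axes that differ between panels. Points are libraries, horizontal lines are group means, the open circle is LBP replicate 2, and the dotted line separates batch 2 (left) from batch 1 (right). The 4 vehicle libraries of batch 1 lie above all others for Cebpa, Cebpb and Cebpd, and LBP replicate 2 lies above all others for Foxa3 and Onecut1.

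After FSTL3, Cebpb rose and Foxa2 fell relative to the vehicle of batch 2. These were 2 of 9 members, against 39.2% of all 11969 genes tested (23.2% higher and 16% lower). Cebpb (ENSMUSG00000056501, chromosome 2, 167688915 to 167690418, plus strand) had 30.3, 31.5, 30.9 and 36.5 CPM in the FSTL3 libraries, against 12.2, 21.8, 17.9 and 12.8 CPM in the vehicle libraries. All 4 FSTL3 libraries lay above all 4 vehicle libraries. The difference was 0.97 ± 0.26 on the log2 scale, or 1.97-fold (edgeR adjusted p = 0.00509). Cebpb was also higher after FSTL3 than after EPDR1 (log2 1.102 ± 0.27, edgeR adjusted p = 0.00213) and than after FCN2 (1.99 ± 0.28, edgeR adjusted p = 6.65e-06). These contrasts share the FSTL3 libraries, and the members called in both were Cebpb and Foxa2. Against EPDR1, 42% of all genes were called (24% higher and 18% lower), and against FCN2, 44.3% (25.9% higher and 18.4% lower).

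The direction of the Cebpb difference after FSTL3 depended on the vehicle group. The vehicle of batch 1 had 96.6 to 146 CPM of Cebpb, above all FSTL3 libraries, and against it Cebpb was lower after FSTL3 (log2 -1.81 ± 0.26, edgeR adjusted p = 1.39e-05). Against that vehicle 31.9% of all genes were called (18.7% higher and 13.2% lower). With Cebpb, the genes Cebpa, Cebpd, Foxa1 and Foxa2 were lower. That contrast crosses batches, so batch and protein cannot be told apart in it. Clock genes also differed between the vehicle groups. Dbp, a clock-controlled zipper factor, had 24.1 to 41.5 CPM in FSTL3 libraries and 60.1 to 95 CPM in the vehicle of batch 1, against 0.747 to 11.1 CPM in the vehicle of batch 2. Arntl, which encodes the clock activator BMAL1, had 2.43 to 5.59 CPM in FSTL3 libraries and 1.14 to 4.95 CPM in the vehicle of batch 1, against 15.8 to 32.9 CPM in that of batch 2. Markers of liver cell types moved as well. After FSTL3, 4 of 10 hepatocyte markers tested and 5 of 11 markers of Kupffer cells, the macrophages of the liver, were lower than in the vehicle of batch 2, with none higher. Of 10 endothelial markers, 6 were higher and none lower, and they summed to 539 to 661.8 CPM, against 204.3 to 255.7 CPM. Stellate cell markers went both ways, with 3 of 10 higher and 1 lower. Among all genes, 23.2% were higher and 16% lower in this contrast. The part of the clock genes, of these cells and of the RNA composition of the FSTL3 libraries in the differences of Cebpb and the other members was not tested.

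Cebpb, with a single exon, shares 312 exon bases (20.7% of its exon bases) with Tmem189 on the opposite strand, and the reads were counted without strand. Tmem189 had 4.43 to 7.17 CPM in FSTL3 libraries, against 8.68 to 13.6 CPM in the vehicle of batch 2, and fell (log2 -0.97 ± 0.24, edgeR adjusted p = 0.00252). Tmem189 and Cebpb differed in opposite directions there. These directions cannot show to which gene, if any, reads in the shared bases were counted, and that was not tested. After LBP, Tmem189 differed by 0.51 ± 0.27 on the log2 scale (edgeR adjusted p = 0.272).

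Cebpa (ENSMUSG00000034957, chromosome 7, 35119293 to 35121928, plus strand) had 220, 245, 184 and 173 CPM in FSTL3 libraries, against 265, 266, 245 and 270 CPM in the vehicle of batch 2. The highest FSTL3 library lay just under the lowest vehicle library. The difference of -0.35 ± 0.17 on the log2 scale did not pass (edgeR adjusted p = 0.114). It passed when LBP replicate 2 was left out of the shared estimate of spread (-0.36 ± 0.13, edgeR adjusted p = 0.0243, with 56.8% of all genes called, 31.3% higher and 25.4% lower). With Cebpb higher, the level of Cebpb per kilobase was 22.5% to 37% of that of Cebpa in FSTL3 libraries, against 8.07% to 14.3% in the vehicle of batch 2.

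**Figure D2:**
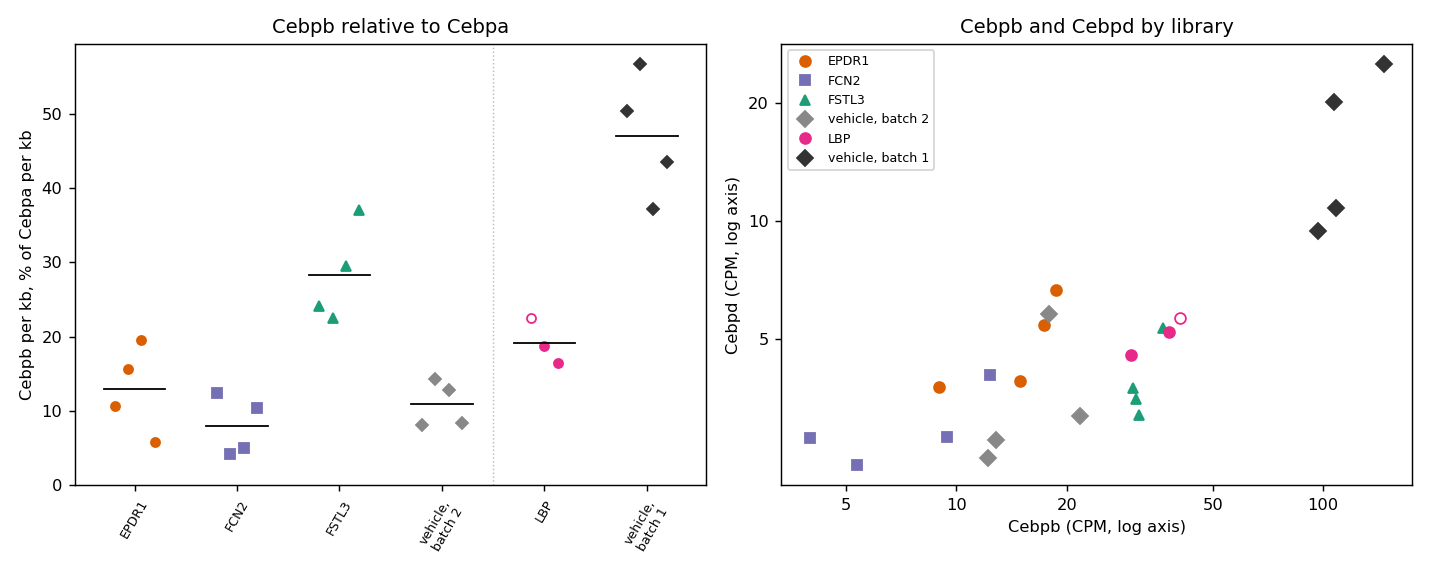
Left, the level of Cebpb per kilobase as a percentage of that of Cebpa in each library, with group means as lines and LBP replicate 2 as an open circle. Right, Cebpb against Cebpd in CPM on log axes. The 4 FSTL3 libraries (22.5% to 37%) lie above the vehicle of batch 2 (8.07% to 14.3%), and the LBP libraries (16.4% to 22.5%) lie below the vehicle of batch 1 (37.2% to 56.8%).

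Foxa2 (ENSMUSG00000037025, chromosome 2, 148042877 to 148046969, minus strand) had 13.04, 19.1, 12.7 and 12.8 CPM in FSTL3 libraries, against 28.6, 19.8, 27.4 and 37.1 CPM in the vehicle of batch 2. The groups did not overlap, although FSTL3 replicate 2 and vehicle replicate 2 were close. Foxa2 fell by 0.95 ± 0.23 on the log2 scale, or 1.93-fold (edgeR adjusted p = 0.00266). It was also lower after FSTL3 than after EPDR1 (log2 -1.17 ± 0.24, edgeR adjusted p = 4.13e-04) and than after FCN2 (-1.22 ± 0.23, edgeR adjusted p = 2.32e-04). In FSTL3 libraries, the fold changes of all genes rose with exon length (Spearman 0.458 across 11969 genes, which are not independent). With the trend of each library in exon length removed, the Foxa2 difference was -0.58 ± 0.22 and no longer passed (edgeR adjusted p = 0.059), while that of Cebpb was 1.59 ± 0.26 (edgeR adjusted p = 7.18e-05).

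Foxa1 (ENSMUSG00000035451, chromosome 12, 57540628 to 57546916, minus strand), the close relative of Foxa2, had 10.2, 17.9, 10.03 and 11.3 CPM in FSTL3 libraries, against 16.7, 20.2, 14.1 and 19.8 CPM in the vehicle of batch 2. Only FSTL3 replicate 2 reached the range of the vehicle. The difference of -0.53 ± 0.26 did not pass with all libraries (edgeR adjusted p = 0.114), but passed without LBP replicate 2 (-0.55 ± 0.23, edgeR adjusted p = 0.041) and without FSTL3 replicate 2 (-0.79, edgeR adjusted p = 0.03). The summed level of 8 bile duct cell markers was 24.9 to 34.6 CPM in FSTL3 libraries, against 45.1 to 76.8 CPM in the vehicle of batch 2. The highest of them was Spp1, at 16.3 to 27.4 CPM against 34.1 to 59.8 CPM. Sox9, a defining marker, had 2.26 to 4.87 CPM against 6.48 to 11.4 CPM. The part of these cells in the lower Foxa2 and Foxa1 levels was not tested.

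The other members did not pass after FSTL3. Hnf4a (ENSMUSG00000017950, chromosome 2, 163506808 to 163572910, plus strand) had 485 to 593 CPM in FSTL3 libraries, against 410 to 683 CPM in the vehicle, with a difference of -0.11 and a 95% interval of -0.72 to 0.50. Foxa3 (ENSMUSG00000040891, chromosome 7, 19013284 to 19023538, minus strand) had 30.6 to 43.9 CPM, against 31.2 to 58.1 CPM. Cebpg (ENSMUSG00000056216, chromosome 7, 35046422 to 35056573, minus strand) had 63.3 to 76.2 CPM, against 65.6 to 104.6 CPM, with a difference of -0.25 (95% interval -0.66 to 0.16). Cebpd had 3.21 to 5.34 CPM, against 2.49 to 5.81 CPM. Onecut1 is described further on.

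**Figure D3:**
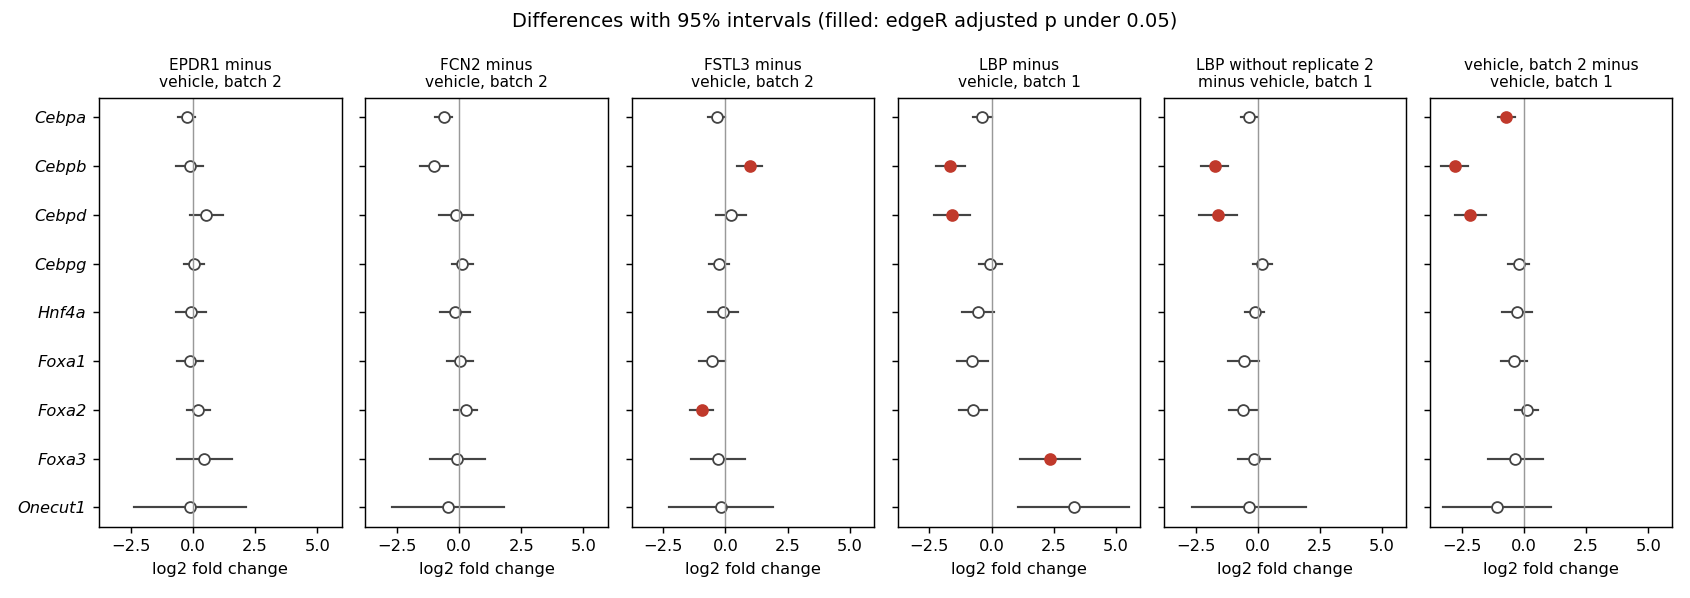
Log2 fold changes of the 9 genes with 95% intervals in 6 comparisons, each named above its panel as the first group minus the second. Filled points had an edgeR adjusted p under 0.05. No point is filled for EPDR1 or FCN2, and those of Foxa3 and Onecut1 after LBP lie at 2.34 and 3.30 with replicate 2 and at -0.15 and -0.36 without it.

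After LBP, the inducible C/EBP genes Cebpb and Cebpd were both lower than in the vehicle of batch 1, with and without LBP replicate 2. Cebpb had 40.8, 38.1 and 29.9 CPM in LBP replicates 2, 3 and 4, against 107, 146, 96.6 and 108 CPM in the vehicle libraries. Each LBP library had less than the lowest vehicle library. With all libraries the difference was -1.67 ± 0.30 on the log2 scale, a level 3.17-fold lower (edgeR adjusted p = 0.00865). Without LBP replicate 2 it was -1.73 ± 0.28, or 3.31-fold lower (edgeR adjusted p = 0.00437), and without replicates 2 and 4, which leaves LBP with a single library assumed to vary like the others, it was -1.57 (edgeR adjusted p = 0.0168). With the trend of each library in GC content removed, Cebpb without replicate 2 was not called (edgeR adjusted p = 0.237). A fit of the LBP and batch 1 vehicle libraries alone did not call Cebpb with all LBP libraries (edgeR adjusted p = 0.549), but called it without replicate 2 (edgeR adjusted p = 0.00202).

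Cebpd (ENSMUSG00000071637, chromosome 16, 15887286 to 15891031, plus strand) had 5.66, 5.21 and 4.57 CPM in LBP replicates 2, 3 and 4, against 20.1, 25.1, 9.42 and 10.8 CPM in the vehicle of batch 1. The groups did not overlap, but the vehicle libraries differed by more than the gap between the groups. These levels rest on 5 to 17 reads per LBP library and 22 to 87 reads per vehicle library. Cebpd fell by 1.59 ± 0.37 on the log2 scale with all libraries (edgeR adjusted p = 0.0137) and by 1.59 ± 0.39 without LBP replicate 2 (edgeR adjusted p = 0.0454). The call without replicate 2 was lost on leaving out also LBP replicate 3, LBP replicate 4, vehicle replicate 1 or vehicle replicate 2 (edgeR adjusted p = 0.077 to 0.168). Cebpd was not called by limma-voom (adjusted p = 0.0992 with all libraries and 0.114 without replicate 2) or in the fit of the compared libraries alone (edgeR adjusted p = 0.549 and 0.135). Cebpd shares 562 exon bases (15%) with Spidr on the opposite strand, which had 0 to 5.92 CPM in LBP libraries, against 1.14 to 4.59 CPM in the vehicle.

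With all LBP libraries 3 of 9 members were called, Cebpb, Cebpd and Foxa3, against 7.7% of all genes (6.73% higher and 0.969% lower). Without LBP replicate 2 the members called were 2 of 9, Cebpb and Cebpd, both lower, against 0.727% of all genes (0.515% higher and 0.212% lower). Cebpa had 318, 356 and 319 CPM in LBP replicates 2, 3 and 4, against 371, 451, 456 and 437 CPM in the vehicle. All LBP libraries lay below the vehicle libraries, but the difference did not pass with all libraries (log2 -0.37 ± 0.19, edgeR adjusted p = 0.253) or without replicate 2 (-0.34 ± 0.17, edgeR adjusted p = 0.351). Foxa2 had 11.3, 15.6 and 17.5 CPM in LBP replicates 2, 3 and 4, against 19.1 to 33.1 CPM in the vehicle, and did not pass with all libraries (-0.75 ± 0.28, edgeR adjusted p = 0.105) or without replicate 2 (-0.60 ± 0.29, edgeR adjusted p = 0.359). The level of Cebpb per kilobase was 16.4% to 22.5% of that of Cebpa after LBP, against 37.2% to 56.8% in the vehicle.

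The LBP values of Foxa3, Onecut1 and Hnf4a differed most between replicate 2 and the other LBP libraries. Foxa3 had 785 CPM in LBP replicate 2, but 45.6 and 56.8 CPM in replicates 3 and 4, against 55.1 to 61.6 CPM in the vehicle. It was called with all libraries (log2 2.34 ± 0.61, edgeR adjusted p = 0.0236) but was at -0.15 ± 0.32 without replicate 2 (edgeR adjusted p = 0.899). Onecut1 had 564 CPM in LBP replicate 2 and 10.7 and 18.02 CPM in replicates 3 and 4, against 8.77 to 32.5 CPM in the vehicle. Hnf4a had 149.6 CPM in LBP replicate 2, below every other library of the study, and 652 and 683 CPM in replicates 3 and 4, against 688 to 809 CPM in the vehicle. In LBP replicate 4, where the acinar markers summed to 905.5 CPM, Foxa3 and Onecut1 lay within the range of the vehicle. The summed level of 8 bile duct markers was 60, 112.9 and 37.1 CPM in LBP replicates 2, 3 and 4, against 28.3 to 42.2 CPM in the vehicle. In replicate 2, 3 of the 8 were at 0. Single markers spread widely among the LBP libraries. Spp1 ran from 0 to 81.4 CPM, against 19.8 to 33.1 CPM in the vehicle. Sox9 ran from 2.15 to 32.9 CPM, against 2.83 to 5.71 CPM. Further marker sums were high in LBP replicate 2. Erythroid markers summed to 2731 CPM there, against 233.5 to 369.7 CPM in the vehicle. The globin genes Hba-a1, Hba-a2, Hbb-bs and Hbb-bt rose above the vehicle in the highest LBP library. Alas2 ran from 3.40 to 96.55 CPM among the LBP libraries, against 93.6 to 122.1 CPM. Adipocyte markers summed to 14410 CPM in replicate 2, against 2234 to 2700 CPM in the vehicle. Nearly all of that sum was Car3, which ran from 2673 to 14250 CPM among the LBP libraries. Adipoq, Lep, Plin1 and Retn were too low to be tested. Kupffer cell markers summed to 1296 CPM in replicate 2, against 336.7 to 481 CPM, with 1 of 11 at 0. C1qa, C1qb and Marco reached 700.3, 204 and 162 CPM in their highest LBP library, against at most 52.5, 38.8 and 16.5 CPM in the vehicle. In their lowest LBP library they were at 25.7, 21.8 and 4.88 CPM. C1qc stayed lower, at 21.5 to 28.2 CPM after LBP, against 32 to 54.1 CPM. Pancreatic islet markers summed to 24.9 CPM in replicate 2, with 5 of 7 at 0 there and all 7 at 0 in the vehicle. The part of other cells or tissue in the Foxa3 and Onecut1 levels of replicate 2 was not tested.

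FCN2 and EPDR1 gave no called member. After FCN2, 0 of 9 members were called by edgeR, against 0.81% of all genes (0.159% higher and 0.652% lower). DESeq2 called 2 members and 787 of all genes, and limma-voom called 0 members and 128 of all genes. At an edgeR unadjusted p under 0.05 there were 2 members, against 2069 of all 11969 genes. The 2 were Cebpa and Cebpb. Cebpa had 174, 168, 187 and 158 CPM after FCN2, against 265, 266, 245 and 270 CPM in the vehicle of batch 2. All 4 FCN2 libraries lay below all 4 vehicle libraries, at a difference of -0.61 ± 0.17 on the log2 scale (edgeR adjusted p = 0.0835). Without LBP replicate 2 in the estimate of spread, it passed (-0.61 ± 0.13, edgeR adjusted p = 0.00342), as did 18.9% of all genes (8.81% higher and 10.1% lower).

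Cebpb had 12.3, 4, 5.38 and 9.42 CPM after FCN2, against 12.2, 21.8, 17.9 and 12.8 CPM in the vehicle. Only FCN2 replicate 1 reached the lowest vehicle library. The difference was -1.01 ± 0.28 (edgeR adjusted p = 0.0766), and -1.001 ± 0.26 without LBP replicate 2 (edgeR adjusted p = 0.0112). After EPDR1, 0 of 9 members were called by edgeR, DESeq2 or limma-voom, against 0% of all genes. None had an edgeR unadjusted p under 0.05, against 493 of all 11969 genes. The largest difference after EPDR1 was that of Cebpd, at 0.54 on the log2 scale with a 95% interval of -0.13 to 1.198. Between FCN2 and EPDR1, edgeR called 0 of 9 members and 0% of all genes. There, 1 member had an edgeR unadjusted p under 0.05, against 1097 of 11969 genes. DESeq2 called 0 members and 82 of all genes, and limma-voom called 0 members and 0 genes.

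The vehicle libraries of the batches differed from each other in C/EBP genes. In the vehicle of batch 2, compared with that of batch 1, Cebpb, Cebpd and Cebpa were lower, which was 3 of 9 members, against 12.2% of all genes (5.41% higher and 6.76% lower). Cebpb had 12.2 to 21.8 CPM in batch 2, against 96.6 to 146 CPM in batch 1, and was 6.91-fold lower (log2 -2.79 ± 0.27, edgeR adjusted p = 9.47e-06). Cebpd had 2.49 to 5.81 CPM, against 9.42 to 25.1 CPM (-2.15 ± 0.32, edgeR adjusted p = 2.81e-04). Cebpa had 245 to 270 CPM, against 371 to 456 CPM (-0.71 ± 0.17, edgeR adjusted p = 0.0108). No FOXA gene, Hnf4a, Cebpg or Onecut1 passed. Batch and every other difference between these vehicle libraries cannot be told apart.

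Base composition moved with several of these differences. The transcripts of Cebpb held 67.2% G and C, more than all but 0.0669% of the genes tested. Those of Cebpa held 62.6%, more than all but 0.719%. Cebpd, at 51.6%, lay nearer the middle. Across genes, fold changes fell with GC content, with a Spearman correlation of -0.648 for FCN2, -0.386 for LBP without replicate 2, -0.184 for FSTL3 and -0.509 for the vehicle of batch 2 against that of batch 1. With the GC trend of each library removed, the FCN2 differences were 0.19 ± 0.22 for Cebpa and 0.0015 ± 0.35 for Cebpb. Between the vehicles Cebpa was at 0.13 ± 0.22, while Cebpb stayed lower (-1.69 ± 0.33, edgeR adjusted p = 0.00483), as did Cebpd (-2.05 ± 0.33, edgeR adjusted p = 8.22e-04).

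Removal of the GC trend left the FSTL3 differences at 1.18 ± 0.33 for Cebpb (edgeR adjusted p = 0.00661) and -0.91 ± 0.24 for Foxa2 (edgeR adjusted p = 0.00505). For LBP without replicate 2 it left Cebpb at -0.84 ± 0.28 (edgeR adjusted p = 0.237) and Cebpd at -1.55 ± 0.39 (edgeR adjusted p = 0.0851), neither called. With all LBP libraries, Cebpb was at -1.24 ± 0.36 (edgeR adjusted p = 0.0326) and Cebpd at -1.51 ± 0.37 (edgeR adjusted p = 0.0159). Few genes lie near Cebpb in GC content, so the trend there rests on few genes.

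**Figure D4:**
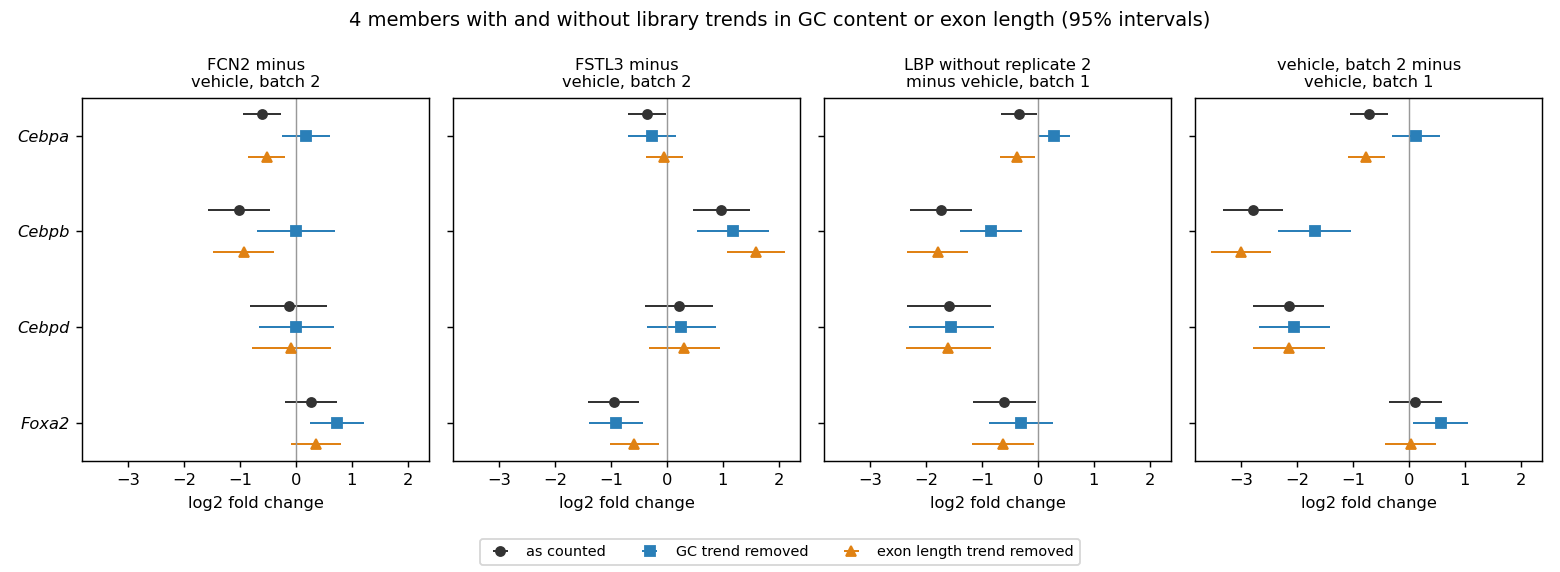
Log2 fold changes with 95% intervals of Cebpa, Cebpb, Cebpd and Foxa2 in 4 comparisons, as counted (circles), with each library's GC trend removed (squares) and with its exon length trend removed (triangles). Intervals are not adjusted for the number of genes. The Cebpa and Cebpb values of FCN2 move to 0.19 and 0.0015 without the GC trend, those of Cebpd move little, and Foxa2 after FSTL3 moves to -0.58 without the length trend.

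The LBP and FSTL3 responses, each taken against its own vehicle, differed in 3 of 9 members, against 31.7% of all genes. The LBP response minus the FSTL3 response was -2.64 ± 0.39 for Cebpb (edgeR adjusted p = 5.91e-05) and -1.81 ± 0.48 for Cebpd (edgeR adjusted p = 0.00713). Without LBP replicate 2, where 37.8% of all genes differed, these were -2.66 ± 0.36 (edgeR adjusted p = 4.13e-06) and -1.82 ± 0.49 (edgeR adjusted p = 0.00459). For Foxa3 it was 2.63 ± 0.83 with replicate 2 (edgeR adjusted p = 0.0194) and 0.14 ± 0.41 without it. The Cebpb levels themselves overlapped, at 29.9 to 40.8 CPM after LBP and 30.3 to 36.5 CPM after FSTL3, in different batches. No member passed the test of a difference between the LBP response and that to EPDR1 or FCN2. The smallest edgeR adjusted p was 0.124, for Foxa3 against FCN2. Of all genes, 0% passed in either test, and without LBP replicate 2 0% passed against EPDR1 and 0.0572% against FCN2.

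Onecut1 (ENSMUSG00000043013, chromosome 9, 74861921 to 74891781, plus strand) varied widely within groups. It had 4.42, 7.69, 3.03 and 19.6 CPM after EPDR1, and 6.56, 0.8, 17.9 and 1.41 CPM after FCN2. It had 3.40, 23.7, 3.16 and 2.33 CPM after FSTL3, against 25.7, 3.23, 7.06 and 1.39 CPM in the vehicle of batch 2. The 4 groups overlapped, and FSTL3 replicate 2 stood apart from the other FSTL3 libraries. The 95% interval of the FSTL3 difference ran from -2.26 to 1.94 on the log2 scale. The exons of Onecut1 share 52.8% of their bases with Gm20649 on the same strand. Gm20649 had 0 counts in all 23 libraries, so no read in the shared bases was counted for it. If such reads were counted for neither gene, the Onecut1 levels here are too low, which was not tested.

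Foxa1, Foxa2 and Onecut1 varied together within groups. Over the 22 libraries without LBP replicate 2, with each group's mean of log2(CPM + 1) subtracted, Foxa1 and Foxa2 correlated at 0.717, Foxa1 and Onecut1 at 0.588, and Foxa2 and Onecut1 at 0.555. Hnf4a ran the other way, at -0.618 with Foxa1 and -0.654 with Foxa2, and at -0.242 with Onecut1. Cebpb and Cebpd correlated at 0.838 across the 22 libraries and at 0.572 within groups. These are descriptions over libraries that share batches and differ in depth and base composition.

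**Figure D5:**
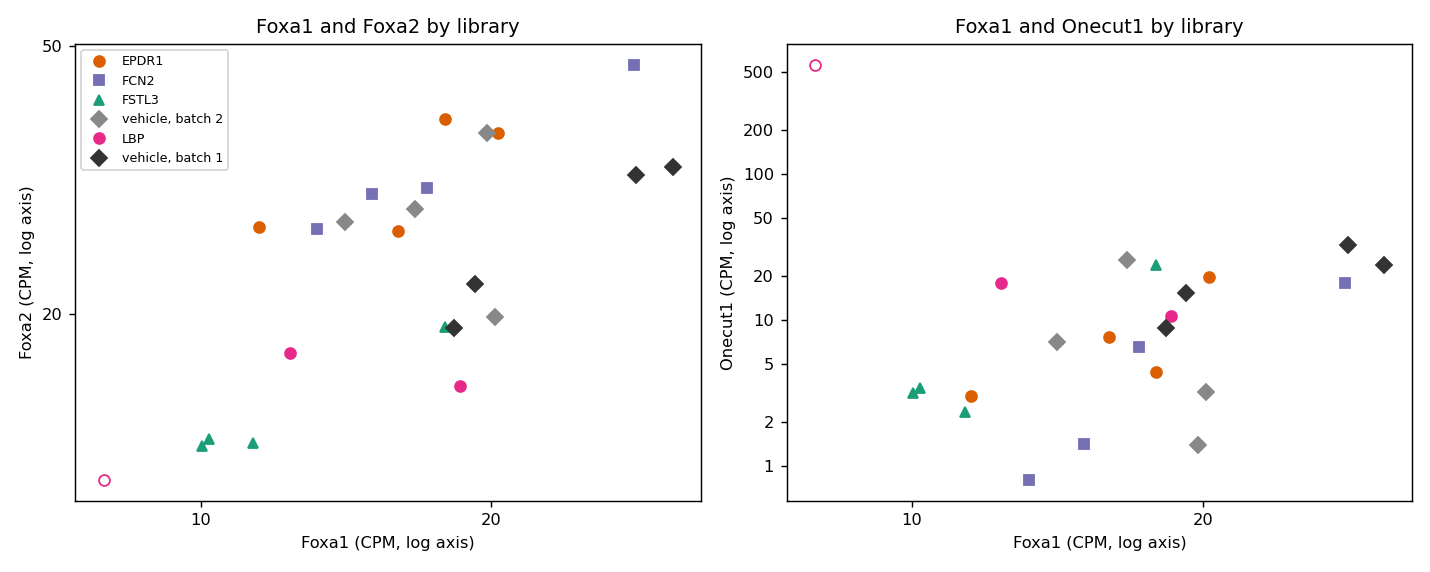
Foxa2 (left) and Onecut1 (right) against Foxa1 in each library, in CPM on log axes. The open circle is LBP replicate 2. FSTL3 replicates 1, 3 and 4 lie at the low end for Foxa1 and Foxa2, FSTL3 replicate 2 lies higher for all 3 genes (17.9, 19.1 and 23.7 CPM), and LBP replicate 2 is low in Foxa1 and highest in Onecut1.

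The genes most like each member were taken as those with the highest Pearson correlation of log2(CPM + 1) over the same 22 libraries, among 10973 genes. For Cebpb the first were Abhd17a (0.941) and Klhl21 (0.937), and for Cebpa Mtch1 (0.944) and Zmiz2 (0.935). Foxa2 was most like Phlda1 (0.898) and Foxq1 (0.876), a forkhead gene. Foxa1 was most like Hhex (0.81), a homeobox gene of the liver, and within groups it was most like Phlda1 (0.908). Onecut1 was most like Slc25a30 (0.894, and 0.889 within groups), which encodes a mitochondrial carrier. Cebpg was most like Itih4 (0.847, and 0.892 within groups), an acute phase plasma protein gene.

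Acute phase genes known as targets of C/EBPβ and C/EBPδ were mostly lower after FSTL3, where Cebpb was higher. Of 16 such genes tested, 12 were lower and 0 higher than in the vehicle of batch 2 (0 higher also at an unadjusted p under 0.05), against 16% lower and 23.2% higher among all genes. Their median was -1.52 on the log2 scale, against 0.06 for all genes. Orm1, an orosomucoid gene, had 234 to 370 CPM after FSTL3, against 1018 to 2105 CPM (log2 -2.11 ± 0.40, edgeR adjusted p = 2.12e-04). Saa1, a serum amyloid gene, had 9.73 to 19.3 CPM, against 464 to 4205 CPM (-6.64 ± 1.21, edgeR adjusted p = 1.59e-04). Orm2 was at -3.84 and Lcn2, which encodes lipocalin 2, at -5.41. The summed level of 7 neutrophil markers, cells that also make lipocalin 2, was 1 to 1.22 CPM after FSTL3, against 3.49 to 18.3 CPM, and the part of these cells was not tested. Against the vehicle of batch 1, where Cebpb was lower after FSTL3, 11 of the 16 were lower too, against 13.2% of all genes. That contrast crosses batches, so batch and protein cannot be told apart in it.

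After LBP with all libraries, 1 of the 16 acute phase genes was called, Orm1, which was higher (log2 1.43 ± 0.41, edgeR adjusted p = 0.0363), against 7.7% of all genes. At an edgeR unadjusted p under 0.05, 7 were higher, against 1987 of all 11969 genes. The median of the 16 was 0.97, against 0 for all genes. Without LBP replicate 2, edgeR called 0 of the 16, against 0.727% of all genes. At an unadjusted p under 0.05 there were 0, against 1715 of 12244 genes. The median of the 16 was then 0.48, against 0.01 for all genes, while Cebpb and Cebpd were lower. Between the vehicles, edgeR called 0 of the 16, against 12.2% of all genes. There, 2 had an unadjusted p under 0.05, against 3171 of 11969 genes. The median of the 16 was 0.13, beside the 6.91-fold lower Cebpb of batch 2.

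Other zipper proteins and liver factors were read from 2 further lists. The first held 15 genes tested, mostly zipper proteins, with the pseudokinase genes Trib1 and Trib3 and the CCAAT-binding factor gene Cebpz, which encode none. Of these 15, 2 were higher and 3 lower after FSTL3, against 23.2% higher and 16% lower among all genes. Atf5, a stress-response factor, had 36.8 to 52.1 CPM, against 229 to 315 CPM (log2 -2.77 ± 0.27, edgeR adjusted p = 7.45e-08), and Nfil3, a repressor of the clock output genes, was at -2.05 ± 0.25. The activators Tef and Dbp were higher, at 1.87 ± 0.20 and 2.91 ± 0.60. Between the vehicles 1 was higher and 4 lower, against 5.41% higher and 6.76% lower among all genes. Tef was at -1.69, Dbp at -4.10 and Nfil3 at 0.89. After LBP with all libraries 1 of the 15 was called, Cebpz, which was higher (0.75 ± 0.23, edgeR adjusted p = 0.0435). Among all genes, 6.73% were higher and 0.969% lower there. Without replicate 2, edgeR called 0 of the 15, against 0.727% of all genes. There, 3 had an edgeR unadjusted p under 0.05, against 1715 of 12244 genes.

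Of 28 other hepatocyte transcription factors tested, 5 were higher and 1 lower after FSTL3, against 23.2% and 16% of all genes. Ppara, the fatty acid receptor of the liver, had 192 to 290 CPM after FSTL3, against 39.2 to 68.2 CPM (log2 1.958 ± 0.29, edgeR adjusted p = 1.31e-05). Nr3c1, the glucocorticoid receptor gene, was at 0.73 and Foxo3 at 1.2. After LBP with all libraries the called gene was Nr1h3, which encodes the oxysterol receptor LXRα and was higher (1.31 ± 0.41, edgeR adjusted p = 0.0495). Among all genes 7.7% were called there, and 0.727% without replicate 2. Without replicate 2 the called gene was Nr2f6, an orphan receptor gene, which was lower (-1.72 ± 0.31, edgeR adjusted p = 0.00746). Nr2f6 was also lower in the vehicle of batch 2 than in that of batch 1 (-1.97 ± 0.34, edgeR adjusted p = 8.06e-04). Between these vehicles, 2 of the 28 were higher and 5 lower, against 5.41% higher and 6.76% lower among all genes.

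Of 30 hepatocyte genes known to depend on these factors, 3 were higher and 3 lower after FSTL3, against 23.2% higher and 16% lower among all genes, with a median of -0.26 against 0.06. Rbp4, the retinol carrier gene, had 935 to 1130 CPM, against 2345 to 3156 CPM (log2 -1.45 ± 0.20, edgeR adjusted p = 5.57e-06). Cyp7a1, which starts the classic route from cholesterol to bile acids, had 136 to 367 CPM, against 38.1 to 64 CPM (2.51 ± 0.50, edgeR adjusted p = 3.97e-04). Apoa1 was at -1.17 and Apob at 1.48. After LBP with all libraries 4 of the 30 were higher and 1 lower, against 6.73% higher and 0.969% lower among all genes. They were led by Apoa2 (2.53 ± 0.57, edgeR adjusted p = 0.0124). Without replicate 2, edgeR called 0 of the 30, against 0.727% of all genes. There, 4 had an edgeR unadjusted p under 0.05, against 1715 of 12244 genes.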

How the data were processed

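The gene counts of 23 liver libraries were used as the authors deposited them, in raw counts. Per the submitters' processing notes, the authors used STAR 2.6.0c, featureCounts 1.6.3 and the build GRCm38. Per the file headers, exons were counted per gene with no strand option. All 23 count columns were mapped to labelled samples. Of the 54838 gene IDs, 54723 were matched to symbols, and all 9 members had the same coordinates in GENCODE M21.

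Counts were filtered with filterByExpr and scaled by TMM. The quasi-likelihood fit of edgeR 4.0.16 (R 4.3.3, robust, 1 mean per group) ran over 23 libraries (11969 genes, common dispersion 0.0774) and over 22 without LBP replicate 2 (12244 genes, common dispersion 0.0298). The reference for each protein was the vehicle group from the same batch. The members, lists and comparisons were chosen with earlier results of these data known. Named genes are the members, up to 4 called genes per list and comparison by smallest p, and the genes most like a member among those with a mean of at least 2 CPM. Some genes that this rule would name are not reported here. The fit was tested on simulated data.

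Alternatives were DESeq2 1.42.0, limma-voom (limma 3.58.1), DESeq2-type and upper quartile scaling, no filter, a filter of 2 CPM in 4 libraries, the compared libraries alone, protein-coding nuclear genes alone, a replicate block, GC and exon length trends removed by lowess (span 0.3), the other vehicle for FSTL3, and leaving out each library. GC content is that of a gene's longest M21 transcript. Intervals are 95% (1.96 SE). In each of the 33 replicate pairs, counts differed beyond sampling noise (lowest chi-square over its degrees of freedom 2.27), so none was merged. Total counts of 773499 to 21892416 limit the precision of Cebpd and Onecut1 most, whose counts were lowest.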

Additional observations from a re-analysis of the deposited data

Results flagged for a closer look

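Of 45 groups of 4 libraries examined, 1 library stood apart from the other 3 in 4 groups, and chance alone does so in about 1 in 20 groups. In FSTL3, replicate 2 was the high library for Foxa1 (17.9 CPM), Foxa2 (19.1 CPM) and Onecut1 (23.7 CPM), while the other 3 libraries lay between 10.03 and 11.3, 12.7 and 13.04, and 2.33 and 3.40 CPM. In the vehicle of batch 1, Hnf4a was at 809 CPM in 1 library, with the others at 688 to 708 CPM.

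Responses differed between proteins in a test of the difference itself (edgeR quasi-likelihood test, adjusted p under 0.05 over all genes). The LBP response minus the FSTL3 response was -2.64 for Cebpb, -1.81 for Cebpd and 2.63 for Foxa3 on the log2 scale. The Foxa3 value rests on LBP replicate 2 and was 0.14 without it. Each response is taken against the vehicle of its own batch, so batch cannot be told apart from the protein here. Within batch 2, FSTL3 differed from EPDR1 by 1.102 for Cebpb and by -1.17 for Foxa2, and from FCN2 by 1.99 for Cebpb and by -1.22 for Foxa2.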

How the results depend on the processing

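The FSTL3 differences of Cebpb and Foxa2 kept their direction and stayed called under every alternative with the vehicle of batch 2 except 1, the removal of the exon length trend, which ended the Foxa2 call. Set against the batch 1 vehicle instead, Cebpb was at -1.81 and Cebpd at -1.93 on the log2 scale for FSTL3, and 5 members were called. For FSTL3 the members called were 1 with the length trend removed and 5 with only the compared libraries, against 2 in the reported fit. Over all genes these fits called 3196, 7929 and 4695. For FCN2 the members called were 2 with DESeq2 and 2 with only the compared libraries, against 0 (787, 1409 and 97 of all genes). For LBP they were 0 with the replicate block, 1 with limma-voom and 0 with only the compared libraries, against 3. Over all genes these fits called 11, 3, 0 and 922. For LBP without replicate 2, 0 members were called with the block and 0 with the GC trend removed (21 and 45 of all genes). There, 1 was called with limma-voom and 1 with only the compared libraries, against 2 (36, 12 and 89 of all genes). For FSTL3 against EPDR1, 4 members were called with only the compared libraries, against 2 (7285 and 5028 of all genes). For FSTL3 against FCN2, 4 were called with only those and 4 with the length trend removed, against 2 (7763, 4309 and 5304 of all genes). Cebpa between the vehicles was at 0.13 with the GC trend removed and lost its call with no filter (-0.69, edgeR adjusted p = 0.179). The causes were not tested.

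Leaving out 1 library at a time, the members called were 0 to 0 for EPDR1, 0 to 2 for FCN2, 2 to 4 for FSTL3, 2 to 5 for LBP, 1 to 2 for LBP without replicate 2, 3 to 3 between the vehicles, 2 to 3 for FSTL3 against EPDR1, 2 to 4 for FSTL3 against FCN2 and 0 to 0 for FCN2 against EPDR1. Over all genes, the same fits called 0 to 1 for EPDR1, 0 to 2314 for FCN2, 3853 to 6950 for FSTL3 and 89 to 2145 for LBP. The range was 4254 to 7170 for FSTL3 against EPDR1 and 4559 to 7441 for FSTL3 against FCN2. The higher member counts of FCN2 and FSTL3 came without LBP replicate 2, and the 5 of LBP without LBP replicate 3. Foxa3 after LBP ranged from -0.15, without replicate 2, to 2.84, and lost its call without any 1 of the 4 vehicle libraries (edgeR adjusted p = 0.0563 to 0.0683).

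Same-numbered libraries deviated together weakly (r -0.144 to 0.349, over 0.1 in 10 of 27 pairs), and the numbers were not taken as pairs. The same-numbered library was still the best match in 14 of the 27, a count that was not compared with its chance level. Pairing by number was therefore not excluded. With the replicate block, the LBP calls ended for Cebpb (edgeR adjusted p = 0.0695, and 0.0757 without replicate 2), Cebpd (0.141 and 0.268) and Foxa3 (0.395), and no other call of a member changed. No paired analysis was possible between the vehicle groups because they lie in different batches.

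Counts over all genes moved more. FCN2 had 97 genes called, against 787 with DESeq2, 1409 with only the compared libraries, 9 with no filter, 51 with the block, 64 and 150 under the other scalings and 0 with the GC trend removed. LBP had 922, against 404 with no filter, 11 with the block, 3 with limma-voom and 0 with only the compared libraries. Without replicate 2 it had 89, against 506, 21, 36 and 12 under the same settings, 248 with DESeq2 and 45 with the GC trend removed. The vehicles had 1456, against 659 with no filter, 788 with the GC trend removed and 3962 alone. FSTL3 had 4695, against 7190 with no filter and 7929 alone. Leaving out 1 library gave 0 to 2314 for FCN2, 89 to 2145 for LBP, 23 to 345 for LBP without replicate 2, 857 to 3715 for the vehicles and 0 to 579 for FCN2 against EPDR1.

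DESeq2 gave no adjusted p for Foxa3 and Onecut1 in fits with LBP replicate 2. Depth limits Cebpd and Onecut1 most, and with 2 or 3 LBP libraries only large differences could pass.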
